A study of Caenorhabditis elegans with 14 samples.

Results

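The mir-58 family is the bantam-like family of Caenorhabditis elegans microRNAs, here the 4 genes mir-58.1, mir-80, mir-81 and mir-82. MicroRNAs are short RNAs that pair with messenger RNAs through a stretch near their 5′ end, the seed, and lower their translation and stability. Family members share most of that seed with one another and with bantam, a growth-promoting microRNA of Drosophila, and are known to act redundantly. Worms that lack several of them together are small and show defects in movement, egg laying and dauer formation, and the family is known to restrain components of TGF-beta signalling.

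Members were taken by identifier from the microRNAs of both deposited tables: Y67D8A.4 followed by a letter (mir-58.1), K01F9.3 followed by a letter (mir-80), and T07D1 for the neighbouring genes mir-81 (T07D1.6) and mir-82 (T07D1.7). This gave 5 products of 4 genes among 203 microRNA products of 180 genes and 16641 listed transcripts. The final letter is read here as marking a mature product; the hairpin arm it stands for was not given in the sources used here. mir-80 is listed with products a and b, each of the other 3 genes with product a alone.

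The study examined SNPC-4, formerly GEI-11, a worm component of the SNAP complex, a factor that binds promoters of small nuclear RNA genes. Of its 14 samples, 2 small RNA libraries were used, and the 12 ChIP-seq and input samples were not analysed here. Both libraries come from whole young adults of the strain N2. The control RNAi animals ate bacteria with the empty vector L4440, and the snpc-4 RNAi animals ate bacteria making snpc-4 double-stranded RNA. The labels disagree on whether feeding began at the L1 or the L2 stage. Depletion of snpc-4 itself was not analysed here. The comparison asks how far this abundant microRNA family differed when snpc-4 was targeted, beside the piRNAs the study is about.

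With 1 library per group there is no spread between replicates to set a difference against and no p-value; what follows describes these 2 libraries, not the conditions in general. Intervals are 95% and cover counting error only. They may be too narrow, because PCR copies of one molecule cannot be recognised without molecular identifiers. Abundance is given in RPM, the deposited read count scaled to the library, which rests on totals of 20413480 reads under control RNAi and 20875010 under snpc-4 RNAi. The listed transcripts hold 956653 and 1074622 counts, of which microRNAs take 812616 and 954777. In RNA from whole animals, fewer cells of a type and less RNA per cell cannot be told apart.

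In the deposited counts the family was one of the main microRNA groups, and its summed RPM was nearly equal in both libraries. Its 5 products summed to 185024 counts under control RNAi and 192654 under snpc-4 RNAi, or 9064 RPM (9023 to 9105) and 9229 RPM (9188 to 9270). The ratio of snpc-4 to control was 1.02 (exact conditional interval 1.01 to 1.02). In RPM, mir-80 and mir-82 were slightly higher under snpc-4 RNAi and mir-58.1 was lower. This split of directions holds in RPM and with the median ratio without piRNAs; under 4 other scalings all 4 genes were lower, and under the median ratio of all classes all 4 were higher. The gap between mir-58.1 and the others is the same under each scaling.

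mir-80, the most abundant member, had 75560 counts of product a (K01F9.3a) under control RNAi and 82669 under snpc-4 RNAi, which are 3701 and 3960 RPM. The ratio of product a was 1.07 (1.06 to 1.08). mir-82 (T07D1.7a) had 52129 and 56096 counts, or 2554 and 2687 RPM, a ratio of 1.05 (1.04 to 1.06). Both were thus a few percent higher in RPM under snpc-4 RNAi. mir-58.1 (Y67D8A.4a), the member that names the family, had 55911 and 51814 counts, or 2739 and 2482 RPM. Its ratio was 0.906 (0.895 to 0.917), lower under snpc-4 RNAi by more than counting error. These 3 products carried 99.2% of the family's counts under control RNAi and 98.9% under snpc-4 RNAi.

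The remaining products were scarce beside them. mir-80 product b (K01F9.3b) had 1372 counts under control RNAi and 2027 under snpc-4 RNAi, or 67.2 RPM (63.7 to 70.9) and 97.1 RPM (92.9 to 101). Its ratio of 1.44 (1.35 to 1.55) was the highest of the 5 products. mir-81 (T07D1.6a) had 52 and 48 counts, or 2.55 and 2.30 RPM, with a ratio of 0.903 (0.597 to 1.36). The interval includes 1, so at this depth a small difference in mir-81 could not be told from none.

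**Figure D1:**
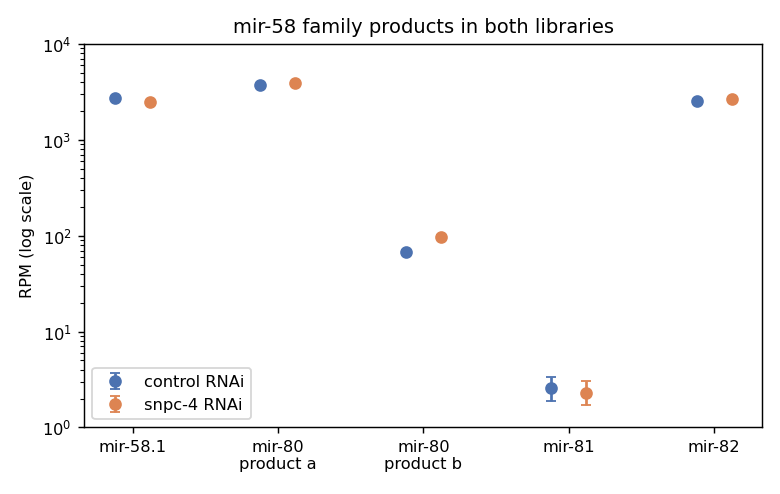
Abundance of the 5 mir-58 family products in RPM on a log axis, with 1 point per library (control RNAi left, snpc-4 RNAi right) and bars for the exact 95% Poisson interval, mostly smaller than the points. mir-80 product a, mir-58.1 and mir-82 lie between 2482 and 3960 RPM, mir-80 product b at 67.2 and 97.1 RPM, and mir-81 at 2.55 and 2.30 RPM.

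mir-81 and mir-82 are neighbouring genes on the X chromosome with near-identical mature sequences, so the split of reads between them is uncertain. The deposited tables give mir-82 a count 1002 times that of mir-81 under control RNAi (764 to 1342) and 1169 times under snpc-4 RNAi (881 to 1585). The assignment of reads that match both genes was not given in the sources used here, and whether this assignment sets the gap was not tested. The genes also stand in different stretches of the deposited listing, described below, and the part of this in the gap was not tested either. Their sum, 52181 and 56144 counts, is the safer value and has a ratio of 1.05 (1.04 to 1.06), as mir-82 alone. Read counts of different microRNAs also depend on how well each end ligates to the adapters, so the order of members by count is an order of reads rather than of molecules.

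The members were next compared with each other, which does not depend on how the libraries are scaled. The ratio of mir-80, both products summed, was 1.19 times that of mir-58.1 (Woolf interval 1.17 to 1.21). The ratio of mir-82 was 1.16 times that of mir-58.1 (1.14 to 1.18). By contrast, the mir-80 ratio was 1.02 times the mir-82 ratio (1.01 to 1.04). mir-58.1 therefore stood apart from mir-80 and mir-82, which nearly kept their proportion. At counts this high an interval excludes 1 even for a ratio of 1.02. How many pairs of other microRNAs do so was not counted. Outside the family, the ratio intervals of mir-84 (1.13 to 1.14), mir-48 (1.17 to 1.19) and mir-1 (1.30 to 1.32) do not overlap either. Such differences between abundant microRNAs are thus not particular to the family. Of the 6 pairs of member genes, the 3 without mir-81 had an interval that excluded 1. The 3 pairs with mir-81 did not, the mir-81 ratio being 0.858 times that of mir-82 (0.579 to 1.27) and 0.996 times that of mir-58.1 (0.673 to 1.47), and the mir-80 ratio 1.19 times that of mir-81 (0.806 to 1.77).

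The make-up of the family shifted accordingly. mir-80 supplied 41.6% of the family's counts under control RNAi (Clopper-Pearson interval 41.4% to 41.8%) and 44.0% under snpc-4 RNAi (43.7% to 44.2%). mir-58.1 went from 30.2% (30.0% to 30.4%) to 26.9% (26.7% to 27.1%), and mir-82 from 28.2% (28.0% to 28.4%) to 29.1% (28.9% to 29.3%). On the RPM scale mir-80 was higher by 289 RPM and mir-82 by 134 RPM, while mir-58.1 was lower by 257 RPM. The family's net difference was 165 RPM higher. The sign depends on the scaling. Scaled to the microRNA total, the ratios of mir-80, mir-82 and the family were 0.937, 0.916 and 0.886. In the control library mir-58.1 had more counts than mir-82, and under snpc-4 RNAi fewer.

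The pair of mir-80 products differed from each other as well. A microRNA hairpin yields a duplex of which one strand is usually loaded into an Argonaute protein and the other mostly degraded. Product a had 55.1 times the counts of product b under control RNAi and 40.8 times under snpc-4 RNAi. Product b made up 1.78% of mir-80 counts (1.69% to 1.88%) and then 2.39% (2.29% to 2.50%). The ratio of product b was 1.35 times that of product a (1.26 to 1.45). A second product is listed for 23 microRNA genes, and both products reached a mean of 10 counts over the libraries for 2 of them, mir-80 and mir-56. For mir-56, product a had 41 and 39 counts and product b had 356 and 437, a b-to-a change of 1.29 (0.815 to 2.04) whose interval includes 1.

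Against other microRNAs with a mean of at least 10 counts, the ratios of the 3 abundant products lay below the median. That of mir-58.1 was below the lower quartile, and those of mir-80 product a and mir-82 lay between the quartiles. Of the 76 microRNA products with a mean of at least 10 counts, all 5 family products among them, 35.5% had a ratio whose counting interval lay above 1 and 13.2% had one below 1. In the family it lay above 1 for 3 products (both of mir-80, and mir-82), below 1 for mir-58.1, and included 1 for mir-81. Scaled to the microRNA total instead, an alternative added later with these values in view, the interval lay above 1 for 13 of the 76 and below 1 for 17, and in the family above 1 for mir-80 product b alone and below 1 for mir-80 product a, mir-82 and mir-58.1. Because such intervals narrow with depth, abundant products pass this limit at small differences. At least 1.5-fold higher ratios were found for 11.8% of the 76 products and at least 1.5-fold lower ratios for 3.95%, and in the family for 0 products in either direction. These are 9 and 3 products in RPM, and likewise with the median ratio without piRNAs. They are 6 and 7 when scaled to the microRNA total, and 39 and 1 with the median ratio of all classes. The excess of higher ratios thus depends on the scaling. mir-80 product b passed 1.5-fold under the median ratio of all classes and under no other scaling tried, and no other family product passed it. The 71 microRNA products outside the family had a median ratio of 1.17 (quartiles 0.931 and 1.33), and the 5 family products a median of 1.05.

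**Figure D2:**
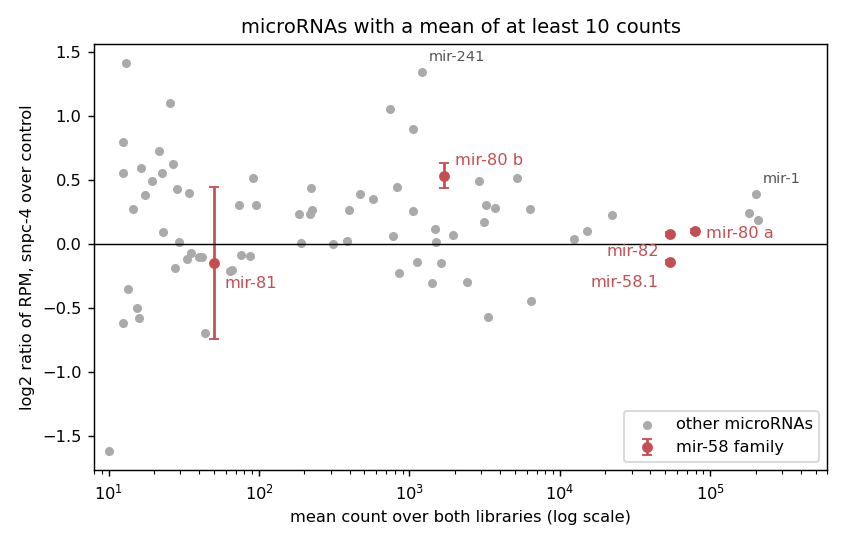
Log2 ratio of RPM, snpc-4 over control, against the mean count over both libraries (log axis) for the 76 microRNA products with a mean of at least 10 counts. Family products are red with bars for the exact 95% interval; in RPM mir-58.1 is the single point below 0 among the 9 products with a mean of at least 10000 counts.

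Among the deepest-counted products, mir-58.1 had the lowest ratio. A scaling cannot change this order, since it moves all ratios by one factor. With a mean of at least 10000 counts there were 9 products, 3 of them family members, and in RPM 8 had a ratio above 1 and mir-58.1 one below. When scaled to all listed counts, 5 of the 9 were below 1, when scaled to the microRNA total 6, and with the median ratio of all classes 0. The 6 outside the family ran from 1.02 for mir-59 to 1.31 for mir-1, the muscle microRNA. Of the 24 products outside the family with a mean of at least 1000 counts, 6 had a lower ratio than mir-58.1, 9 had a lower ratio than mir-80 product a, and 9 had a lower ratio than mir-82. For mir-80 product b, 22 of the 24 were lower.

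By count, mir-80 product a ranked 4 among the 203 microRNA products in both libraries. mir-58.1 ranked 5 under control RNAi and 6 under snpc-4 RNAi, and mir-82 ranked 6 and 5, so these neighbours in the order exchanged places. mir-80 product b ranked 24 and 19, and mir-81 ranked 51 and 50. Above them stood mir-84 and mir-48, members of the let-7 family that times larval development, and mir-1. These 3 and the 3 abundant family products together held 87.5% of microRNA counts under control RNAi and 88.0% under snpc-4 RNAi.

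As a share of microRNA counts the family was lower under snpc-4 RNAi. It held 22.8% under control RNAi (Clopper-Pearson interval 22.7% to 22.9%) and 20.2% under snpc-4 RNAi (20.1% to 20.3%), a difference of -2.59 percentage points. mir-58.1 went from 6.88% to 5.43%, mir-80 from 9.47% to 8.87% and mir-82 from 6.41% to 5.88%. Product b of mir-80 was the single family product with a higher share, 0.169% (0.160% to 0.178%) and then 0.212% (0.203% to 0.222%). Over the same libraries the let-7 family held 46.3% and 46.7%, and mir-1 held 21.2% and 24.1%.

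**Figure D3:**
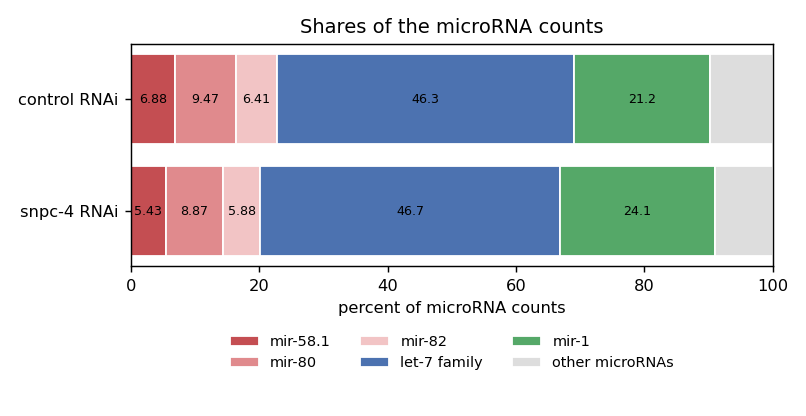
Percent of microRNA counts held by mir-58.1, mir-80 (both products), mir-82, the let-7 family, mir-1 and the rest, which includes mir-81, in each library. The 3 family segments go from 6.88, 9.47 and 6.41 percent under control RNAi to 5.43, 8.87 and 5.88 percent under snpc-4 RNAi.

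In RPM, the lower share goes with a higher level of the other microRNAs. All microRNAs together had 39808 RPM under control RNAi and 45738 RPM under snpc-4 RNAi, a gain of 5930 RPM, of which the family supplied 2.78%. mir-1 supplied 43.8% and the let-7 family 49.3%. These parts hold for RPM alone. Scaled to all listed counts the family's ratio was 0.927, and scaled to the microRNA total there is no gain to divide. In RPM, microRNAs outside the family had a ratio of 1.19, and the family's ratio was 0.857 times that (Woolf interval 0.851 to 0.864). It was 0.879 times the let-7 ratio (0.872 to 0.886) and 0.778 times the mir-1 ratio (0.771 to 0.785). Without mir-84, mir-48 and mir-1, the other microRNAs outside the family had a ratio of 1.09, and the family's ratio was 0.931 times that (0.921 to 0.941). Counted against all microRNAs but those 3, the family's share was 64.8% under control RNAi and 63.2% under snpc-4 RNAi. The mir-35 family, which marks oocytes and embryos, had 54 counts under control RNAi and 16 under snpc-4 RNAi. mir-1, which marks muscle, had 172025 and 230145. The part of such tissue differences in the family's values was not tested.

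The direction of the family's difference depends on the scaling. The family total had a log2 ratio of 0.026 in RPM. It was -0.11 when scaled to all listed counts, -0.17 to the microRNA total and -0.22 to the microRNA total without the family. By the median ratio over transcripts of every class, 560 of the 1109 being piRNAs, it was 0.47. With the piRNAs left out of that median it was 0.040, so the higher value rests on the piRNAs. mir-80 and mir-82 were above 0 in RPM and below 0 under the first 3 of these alternatives. mir-58.1 was below 0 in RPM and under every scaling tried but the median over all classes, where it was 0.31. mir-80 product b was higher under all 7 scalings, with log2 ratios from 0.28 to 0.98. The differences between members are the same under each of them.

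**Figure D4:**
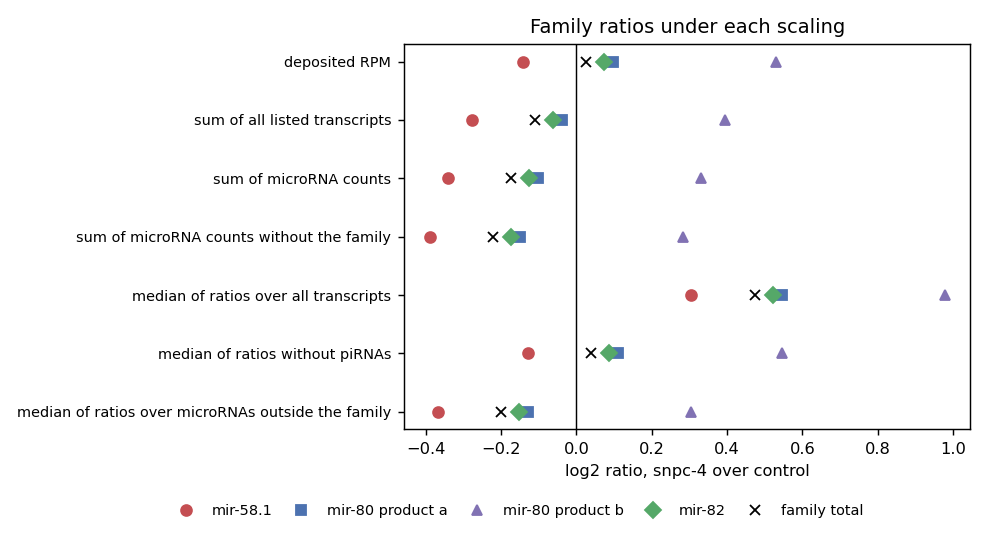
Log2 ratio, snpc-4 over control, of mir-58.1, the mir-80 products, mir-82 and the family total under the deposited RPM and 6 other scalings of the counts. Every scaling moves all points by the same amount, from -0.25 to 0.45, so mir-58.1 stays left of mir-82 and mir-80 product a, and mir-80 product b stays right of them.

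Other microRNAs of the family by name had almost no reads. mir-58.2 had 3 counts under control RNAi and 0 under snpc-4 RNAi. mir-2209.1, mir-2209.2 and mir-2209.3 are each listed with products a and b, and both mir-2209.2 products had 1 count under control RNAi, with 0 elsewhere. These 7 products summed to 5 and 0 counts, all at or under the floor of 3 counts per product, 0.147 RPM under control RNAi and 0.144 RPM under snpc-4 RNAi, so no fold is given. mir-1834 is not among the names matched here.

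Outside the family, the microRNAs nearest to the abundant members in count were let-7, with 20153 and 24095 counts and a ratio of 1.17 (1.15 to 1.19), and mir-71, a regulator of lifespan, with 14394 and 15789 counts and a ratio of 1.07 (1.05 to 1.10). Both were well below the family members in count. Nearest to mir-80 product b were mir-2, with 1690 and 1556 counts and a ratio of 0.900 (0.840 to 0.965), and mir-45, with 1474 and 1517 counts and a ratio of 1.01 (0.936 to 1.08). Product b had a higher ratio than these 2 microRNAs. It was not the highest among products with a mean of at least 1000 counts, as mir-241 had a ratio of 2.54 and mir-239.2 of 1.86. The products with a mean of at least 1000 counts whose log2 ratio lay nearest to that of the family total, over 2 libraries, were mir-59 with 1.02 (0.998 to 1.05), mir-45, and mir-57 with 1.05 (0.982 to 1.11).

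On chromosome III the listed microRNAs next to mir-80 are mir-356.2 on one side and mir-238 on the other, followed by mir-90, and these were named after their values were seen. mir-356.2 had 16 and 35 counts, a ratio of 2.14 (1.15 to 4.14). mir-238 had 2865 and 3621 counts, a ratio of 1.24 (1.18 to 1.30). mir-90 had 2370 and 3411 counts, a ratio of 1.41 (1.34 to 1.48). mir-238 and mir-90 had higher ratios than mir-80 product a. The ratio of product a was 0.866 times that of mir-238 (0.823 to 0.910) and 0.760 times that of mir-90 (0.721 to 0.802). The ratio of mir-80 product b was 1.03 times that of mir-90 (0.942 to 1.12) and 1.17 times that of mir-238 (1.07 to 1.27). Besides each other, mir-81 and mir-82 have mir-75 and mir-264 as listed neighbours, and mir-58.1 has mir-2209.3 and mir-270. None of these is among the products with a mean of at least 10 counts, so neighbours were compared for mir-80 only.

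The members fall in different stretches of the deposited tables. Within each chromosome the microRNAs are listed in 2 runs of ascending position. No read in either library was listed for 55.5% of the 110 products in first runs (Clopper-Pearson 45.7% to 64.9%) and for 12.9% of the 93 in second runs (6.85% to 21.5%). mir-58.1 and mir-81 are in first runs, mir-80 and mir-82 in second runs. mir-58.1 alone holds 97.7% of the microRNA counts in first runs under control RNAi and 96.9% under snpc-4 RNAi. First runs hold 57233 microRNA counts under control RNAi and 53446 under snpc-4 RNAi, and second runs 755383 and 901331. Whether this order of listing reflects a difference in counting was not tested. Such a difference would bear on mir-58.1 against mir-80 and mir-82, and on mir-81 against mir-82. It would also bear on the family's ranks and its shares of the microRNA total.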

How the data were processed

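Small RNA of 22 to 30 nucleotides was prepared with Illumina's v1.5 small RNA kit and sequenced, per the labels' protocols. The authors deposited, for each transcript, a raw read count and an RPM value. Each RPM equals the deposited count divided by 1 constant per library, and the reads behind each library total were not given in the sources used here. BWA is named in the submitters' processing notes, without a version. Genome build, annotation and read counter were likewise not given in the sources used here. A single read equals 0.0490 RPM under control RNAi and 0.0479 RPM under snpc-4 RNAi.

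Symbols were looked up by locus tag, without the final letter, in RefSeq genes of WBcel235; all 203 microRNA products matched. Because the build behind the counts is unknown, that table served for names, chromosomes, neighbours and listing order only. Ratios are of RPM with no pseudocount. Intervals are exact Poisson for levels, exact conditional binomial for ratios, Clopper-Pearson for shares and Woolf for ratios of ratios, all at 95%. No test was made, since each group has 1 library.

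The named microRNAs are all family products, other family members by name, the 2 nearest by mean count to each product with a mean of at least 1000 counts, and the 3 nearest in log2 ratio to the family total; mir-84, mir-48, mir-1, the let-7 and mir-35 families and mir-56 are given where a result turns on them. mir-356.2, mir-238 and mir-90, beside or near mir-80, were named outside this rule, after their values were seen. mir-75, mir-264 and mir-270, beside other members, are named without values. Members, lists and alternatives were chosen with earlier results of these data known. The mean minimum for the comparison with other microRNAs was 10 counts. lsy-6 and mir-124, neuronal microRNAs, were not used. The software was SciPy 1.17.1, pandas 2.3.3, NumPy 2.4.6 and matplotlib 3.10.9 under Python 3.11.15.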

Additional observations from a re-analysis of the deposited data

How the results depend on the processing

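Of 83 alternative values, 35 lay inside the reported interval (ranks: were equal; counts of microRNAs: lay within 1.5 times), 33 lay outside with the sign kept, and 15 changed sign. No paired analysis was possible because each group has 1 library. Scaling moves every log2 ratio by one amount, so its effect follows from its construction. For the family total, mir-58.1, mir-80 and mir-82 in turn, the log2 ratios in RPM were 0.026, -0.14, 0.11 and 0.074. Scaled to all listed counts they were -0.11, -0.28, -0.029 and -0.062. Scaled to the microRNA total they were -0.17, -0.34, -0.094 and -0.13, and to that total without the family -0.22, -0.39, -0.14 and -0.17. With the median ratio of all transcripts they were 0.47, 0.31, 0.55 and 0.52, and mir-81 changed sign from -0.15 to 0.30. With the median ratio of microRNAs outside the family they were -0.20, -0.37, -0.12 and -0.15. With the median ratio without piRNAs the family total was 0.040.

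Without mir-58.1 the family total had a log2 ratio of 0.093, without mir-82 of 0.0070 and without mir-80 of -0.034, the opposite direction. The family's share, which differed by -2.59 percentage points, differed by -1.41 as a share of all listed counts, -1.64 without mir-84, mir-48 and mir-1 in the total, -1.14 without mir-58.1, -1.99 without mir-80 and -2.05 without mir-82. By gene, mir-81 ranked 50 and 49 in place of 51 and 50. The microRNAs past the fold, 9 higher and 3 lower, were 31 and 10 at 1.2-fold, 4 and 1 at 2-fold, 18 and 22 with a minimum mean of 1 count and 3 and 0 with a minimum of 100. Other scalings were added after seeing the data. They gave 7 and 7 (listed counts), 6 and 7 (microRNA total) and 5 and 8 (that total without the family). By median ratios they gave 39 and 1 (all transcripts), 9 and 3 (without piRNAs) and 5 and 7 (microRNAs outside the family). With 1 library per group none of these is a test. A pseudocount of 1 read or 1 RPM, and summing mir-81 with mir-82, left every value they were applied to within its interval. Depth limits mir-81 alone among the members.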
